A study of Mus musculus with 16 samples.

Results

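The 10 genes described here belong to the tumour necrosis factor (TNF) system of the mouse. Among them are the ligands Tnf and Tnfsf9, the receptors Tnfrsf1a and Tnfrsf1b, and the signalling proteins Traf1, Traf2 and Ripk2. The others are the TNF-induced proteins Tnfaip3 and Tnfaip2, and Tnip1, a partner of Tnfaip3. The 10 were chosen by name, with earlier results of these data known. Every probe of the array whose listed gene is one of the 10 was taken. This gave 14 of the 55681 probes on the array, and all 10 genes were among the 15877 genes that passed the filter on dim probes and were tested. RAW264.7, a mouse macrophage-like cell line, was held in low serum and given either 20 µM cordycepin in DMSO or DMSO alone for 60 min. Then 1 µg/ml lipopolysaccharide (LPS), a bacterial cell wall component that macrophages sense as infection, was added or was not, for another 60 min. The 4 conditions were therefore DMSO, cordycepin, LPS+DMSO and LPS+cordycepin, all lysed after 120 min in total. Each was cultured 4 times, with each replicate number on a day of its own and the 4 wells of a day on the same plate, so that n = 4 cultures of a single cell line per condition. Polyadenylation, the step that adds the tail to an mRNA, is what cordycepin, an adenosine analogue, is known to interfere with. The comparisons asked how far LPS raised these mRNAs in 60 min and what cordycepin did to them with and without LPS.

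TNF is made by macrophages within minutes of LPS contact and acts on the receptors TNFR1 (Tnfrsf1a) and TNFR2 (Tnfrsf1b). TRAF and RIP family proteins carry the receptor signal to the kinases that release NF-kB, the transcription factor that drives many inflammatory genes. NF-kB in turn raises proteins that shut its own pathway down, among them A20 (Tnfaip3) and its partner ABIN1 (Tnip1).

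Promoter sequences from RefSeq were found for 8 of the 10 genes (GRCm38.p6). They are shown for Tnf, Traf1, Tnip1 and Traf2, the genes that fell with cordycepin after LPS. That of Tnfaip3, whose LPS response differed with the drug, is shown too. Each is the 250 bases before the annotated start, 5′ to 3′ on the strand of the gene. Capitals mark TATAAA (the letters of a TATA box, wherever they lie), an AP-1 motif (TGANTCA) or the NF-kB consensus, searched on both strands.
Tnf, chr17:35202008-35202257, minus strand: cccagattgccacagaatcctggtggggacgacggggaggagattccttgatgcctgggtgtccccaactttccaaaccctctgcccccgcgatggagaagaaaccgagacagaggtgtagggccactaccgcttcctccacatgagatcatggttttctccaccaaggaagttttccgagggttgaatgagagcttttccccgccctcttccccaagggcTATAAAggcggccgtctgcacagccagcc
Tnfaip3, chr10:19015411-19015660, minus strand: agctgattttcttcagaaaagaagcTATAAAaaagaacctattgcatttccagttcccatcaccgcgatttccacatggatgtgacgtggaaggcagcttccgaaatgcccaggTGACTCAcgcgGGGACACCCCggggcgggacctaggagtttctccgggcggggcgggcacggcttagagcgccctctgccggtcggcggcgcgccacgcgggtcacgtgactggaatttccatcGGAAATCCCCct
Traf1, chr2:34961773-34962022, minus strand: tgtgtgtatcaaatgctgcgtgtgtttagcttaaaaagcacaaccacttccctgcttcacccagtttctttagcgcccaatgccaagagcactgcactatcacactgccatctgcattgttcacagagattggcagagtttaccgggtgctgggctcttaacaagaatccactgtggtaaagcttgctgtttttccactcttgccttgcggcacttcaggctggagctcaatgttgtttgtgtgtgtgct
Tnip1, chr11:54962941-54963190, minus strand: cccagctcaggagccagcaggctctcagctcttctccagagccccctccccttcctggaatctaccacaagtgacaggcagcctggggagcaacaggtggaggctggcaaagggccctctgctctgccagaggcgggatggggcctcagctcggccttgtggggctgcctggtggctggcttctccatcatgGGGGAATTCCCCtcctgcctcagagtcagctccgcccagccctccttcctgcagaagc
Traf2, chr2:25546941-25547190, minus strand: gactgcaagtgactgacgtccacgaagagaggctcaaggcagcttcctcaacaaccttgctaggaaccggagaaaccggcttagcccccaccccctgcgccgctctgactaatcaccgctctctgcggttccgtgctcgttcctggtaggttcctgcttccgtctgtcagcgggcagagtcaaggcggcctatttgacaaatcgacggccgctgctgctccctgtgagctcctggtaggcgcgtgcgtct
The TATAAA of Tnf lies 29 to 24 bases before the start. The window of Tnfaip3 holds an AP-1 motif 136 to 130 bases and NF-kB matches 125 to 116 and 12 to 3 bases before the start, besides a TATAAA 225 to 220 bases before it. In the Tnip1 window, overlapping NF-kB matches on both strands cover bases 58 to 47 before the start, and the windows of Traf1 and Traf2 hold none of the 3 motifs. A second window of Tnfaip3, from another annotated start, is without a match too. Of the 8 genes with a window, 3 held an NF-kB match (the other is Tnfaip2), against 7.25% of all 32851 windows. For TGANTCA the figures were 1 of 8 and 6.75%, and for TATAAA 2 of 8 and 12.37%. A match to these letters is a description of the sequence and not a measurement of binding.

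Levels are log2 processed signals scaled so that the 75th percentile of well-detected probes was equal on all arrays. They were compared within a probe and never between probes. A gene is said to have risen or fallen only where limma gave an adjusted p under 0.05, over all genes tested, and a change of at least 2-fold. Between 37.1% and 51.2% of the spots of an array were well above background, more on the slide that held replicates 3 and 4 than on the slide that held replicates 1 and 2, and 0 were saturated. The reference genes Rpl28, Gapdh and Actb passed no test, with log2 changes between -0.08 and 0.30 in the comparisons of 2 conditions. Of 10 macrophage markers all 10 passed the filter. Cd14 rose by 1.12 and Fcgr1 fell by 1.14 (log2) with LPS. Of 12 markers of other cell types 8 did not pass the filter. The 4 that did were Cd3e, Cd4, Mpo and Cd79a. Cd3e and Cd4 were well above background on all 16 arrays and passed no test, while Mpo and Cd79a were 3.97 and 2.63 (log2) higher in LPS+cordycepin than in LPS+DMSO. Mpo also rose with cordycepin alone, by 2.02 (adjusted p = 2.54e-06). The mean log2 level of the 12 markers was 4.81 to 5.79 on the LPS+DMSO arrays and 5.44 to 6.05 on the LPS+cordycepin arrays (4.56 to 5.71 and 4.76 to 5.48 without Mpo and Cd79a). The part of other cells in the differences below was not tested. RNA came from whole wells, in which fewer cells expressing a gene and less of its RNA per cell cannot be told apart.

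LPS raised 6 of the 10 genes in 60 min and lowered 0, while 2.09% of all genes tested rose and 2.49% fell (4.59% either way). Tnf rose 105-fold, Tnfaip3 37.8-fold, Traf1 35.6-fold and Tnfsf9 7.77-fold, followed by Tnfaip2 (2.96-fold) and Ripk2 (2.09-fold). Ripk2 passed the filter on dim probes only through LPS+DMSO, the condition in which it was high, and with probes well above background on all 16 arrays the count was 5. The median log2 change of the 10 genes was 1.31, against -0.04 over all genes tested. With cordycepin present before and during LPS, 4 of the 10 fell relative to LPS+DMSO (Traf1, Traf2, Tnip1 and Tnf) and 0 rose, where 1.52% of all genes fell and 5.93% rose (7.46% either way). The median of the 10 in this comparison was -0.89, against 0.03 over all genes. Without LPS, cordycepin lowered 1 of the 10, Traf2, and raised 0, where 1.06% of all genes fell and 4.49% rose (5.55% either way). In the presence of cordycepin LPS still raised 5 of the 10 (Tnf, Tnfaip3, Traf1, Tnfsf9 and Tnfaip2), and lowered 0, with 1.69% of all genes raised and 1.22% lowered (2.91% either way). These comparisons share arrays, so that their values are given side by side.

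**Figure D1:**
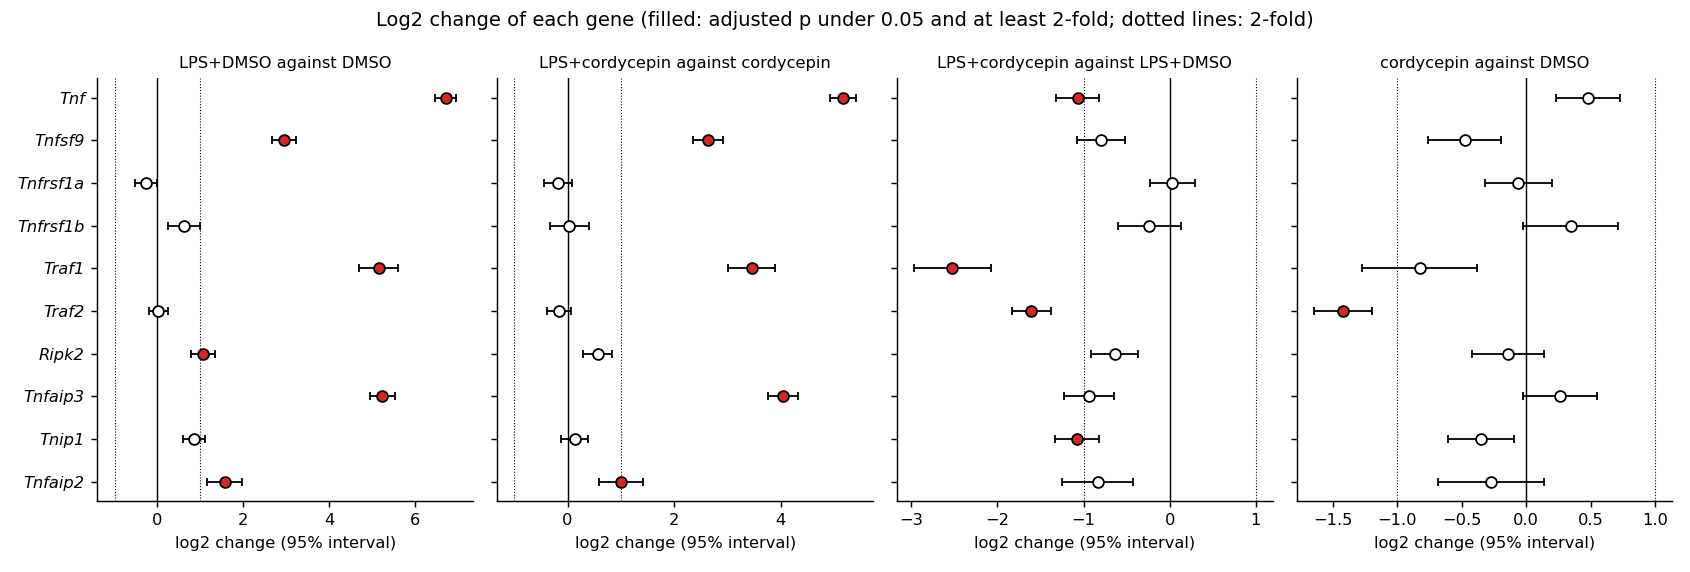
Log2 change of each of the 10 genes (rows) in the 4 comparisons of 2 conditions (panels), with the 95% interval from the limma fit as the horizontal bar. Filled points passed the test at 2-fold; 6 are filled for LPS without the drug, 5 for LPS with it, 4 for cordycepin after LPS and 1 for cordycepin alone.

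LPS+DMSO and DMSO arrays did not overlap for 8 of the 10 genes, compared with 18.8% of all genes tested. LPS+cordycepin and LPS+DMSO did not overlap for 8 of the 10 either, compared with 23% of all genes. For cordycepin and DMSO the figures were 3 of 10 and 21.2%, and for LPS+cordycepin and cordycepin 6 of 10 and 15.4%.

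**Figure D2:**
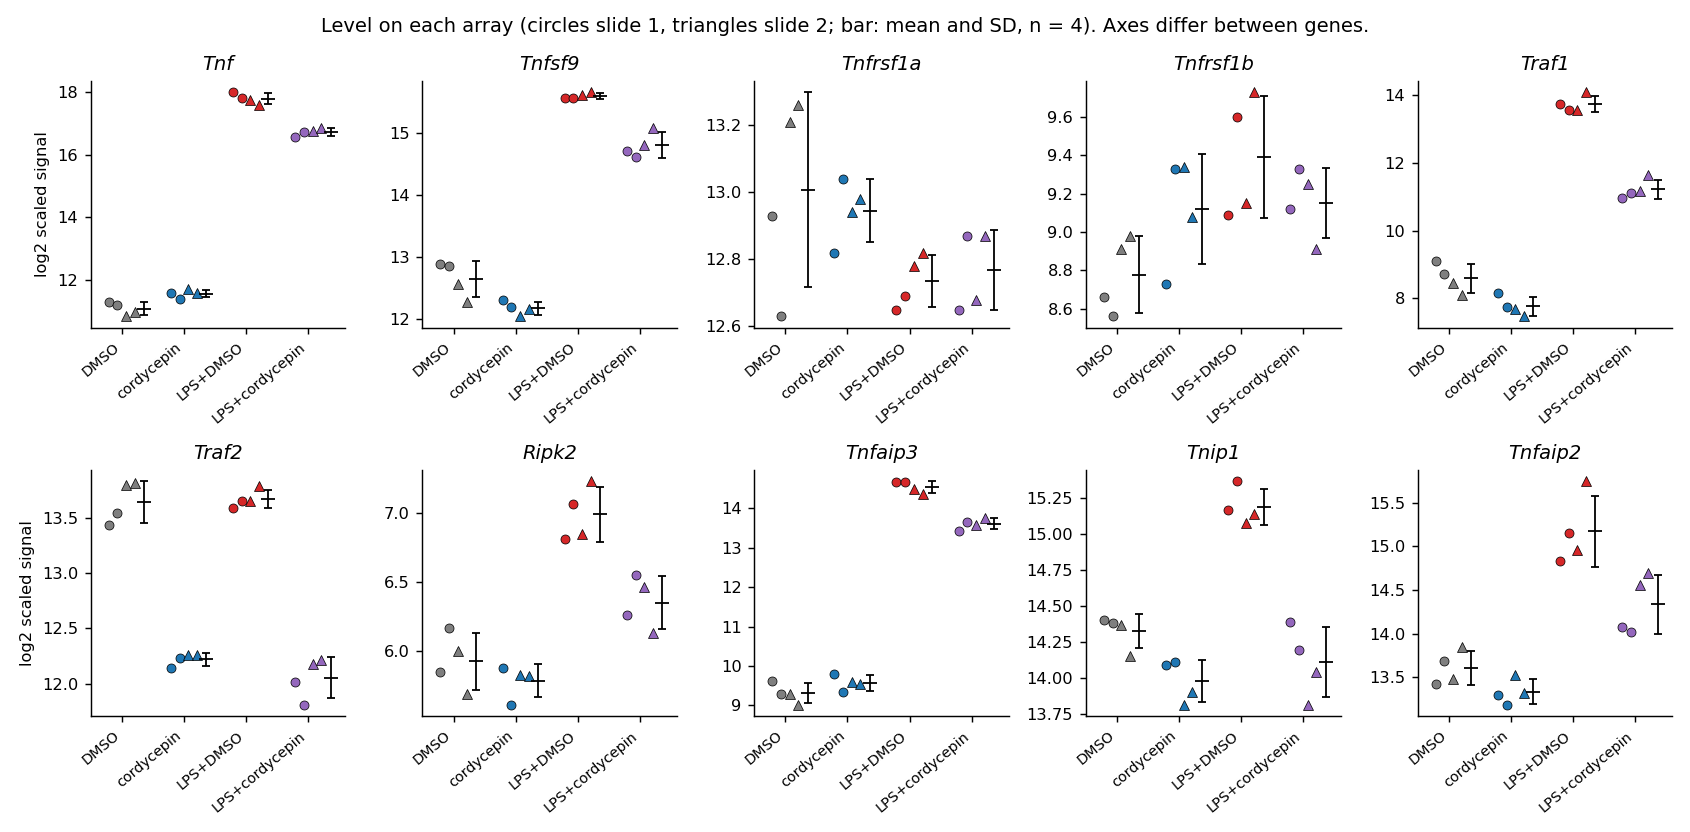
Log2 scaled signal of each gene (panels, with their own axes) on every array, by condition on the horizontal axis. Points are arrays, circles those of slide 1 and triangles those of slide 2, and the bar beside them is the mean and SD (n = 4). Tnf lay between 10.83 and 11.29 with DMSO and between 17.59 and 18.00 with LPS+DMSO.

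Tnf encodes the cytokine itself. Its probe (chr17:35336795-35336854, mm9) was printed in 10 spots on each array. With DMSO it read 11.29, 11.20, 10.83 and 10.98 on days 1 to 4, and with LPS+DMSO 18.00, 17.83, 17.74 and 17.59. With cordycepin it read 11.58, 11.39, 11.69 and 11.57, and with LPS+cordycepin 16.56, 16.73, 16.76 and 16.85. Each condition kept to a range of its own, in the rising order DMSO, cordycepin, LPS+cordycepin, LPS+DMSO. The LPS response was 6.71 ± 0.12 (log2 change ± SE, limma adjusted p = 9.84e-15). LPS+cordycepin was 2.10-fold below LPS+DMSO (-1.07 ± 0.12, adjusted p = 5.29e-06), or 47.7% of it. That fall was at the edge of the 2-fold threshold: without the arrays of day 1 it was -0.95, without the LPS+DMSO array of day 1 it fell just short of 2-fold, and on slide 2 alone it was -0.87. At rest the difference had the other sign, 0.48 ± 0.12 higher with cordycepin (adjusted p = 0.00917), which was under 2-fold.

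Tnfsf9 encodes 4-1BB ligand, a costimulatory ligand of the TNF superfamily that is shown to T cells. Its levels were 12.89, 12.85, 12.57 and 12.27 with DMSO and 15.56, 15.57, 15.62 and 15.66 with LPS+DMSO. They were 12.30, 12.19, 12.04 and 12.16 with cordycepin and 14.71, 14.61, 14.81 and 15.09 with LPS+cordycepin. All LPS arrays were above all others, and only the DMSO and cordycepin arrays overlapped. It rose by 2.96 ± 0.13 with LPS (adjusted p = 4.57e-10) and by 2.64 ± 0.13 in the presence of cordycepin (adjusted p = 2.58e-09). LPS+cordycepin was -0.80 ± 0.13 from LPS+DMSO (adjusted p = 0.000343) and cordycepin -0.48 ± 0.13 from DMSO (adjusted p = 0.0211), each under 2-fold.

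Neither of the receptors passed the test in any comparison. Tnfrsf1a, the receptor that carries a death domain, lay between 12.63 and 13.26 with DMSO and between 12.65 and 12.82 with LPS+DMSO. It lay between 12.82 and 13.04 with cordycepin and between 12.65 and 12.87 with LPS+cordycepin, so that neighbouring conditions overlapped. Its LPS response was -0.27 (95% interval -0.53 to -0.01, adjusted p = 0.168). The difference between LPS+cordycepin and LPS+DMSO was 0.03, with an interval of -0.23 to 0.29. A second probe of the gene gave -0.15 and -0.09 for these comparisons.

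Tnfrsf1b, the receptor without a death domain, read 8.66, 8.56, 8.91 and 8.98 with DMSO and 9.09, 9.60, 9.15 and 9.73 with LPS+DMSO. These arrays did not overlap, and the difference of 0.61 ± 0.17 (adjusted p = 0.0239) was 1.53-fold and under the threshold. With cordycepin it lay between 8.73 and 9.34 and with LPS+cordycepin between 8.91 and 9.33. The LPS response in the presence of the drug was 0.03, with an interval of -0.33 to 0.40. LPS+cordycepin was -0.24 from LPS+DMSO (-0.60 to 0.13), with overlapping arrays.

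Traf1 encodes an adaptor that joins TNFR2 complexes and is itself a target of NF-kB. Its probe (chr2:34798882-34798941, mm9) read 9.09, 8.72, 8.44 and 8.11 with DMSO, and 13.74, 13.56, 13.58 and 14.09 with LPS+DMSO. It read 8.16, 7.74, 7.68 and 7.47 with cordycepin, and 10.97, 11.10, 11.17 and 11.64 with LPS+cordycepin. The LPS+cordycepin arrays lay in a gap, above every array without LPS and below every LPS+DMSO array. Of the 10 genes it had the largest difference between the LPS conditions, a 5.75-fold fall to 17.4% of LPS+DMSO (-2.52 ± 0.21, adjusted p = 3.62e-07). The LPS response was 5.15 ± 0.21 without the drug and 3.46 ± 0.21 with it (adjusted p = 1.42e-10 and 2.53e-08). At rest it was -0.83 ± 0.21 from DMSO (adjusted p = 0.0121), between -0.98 and -0.63 on each of the 4 days but under 2-fold, and the DMSO and cordycepin arrays overlapped.

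Traf2 encodes the adaptor that brings ubiquitin ligases to TNF receptor complexes. Its brighter probe (chr2:25374386-25374445, mm9) read 13.43, 13.54, 13.79 and 13.81 with DMSO and 13.59, 13.65, 13.65 and 13.78 with LPS+DMSO. It read 12.14, 12.23, 12.26 and 12.26 with cordycepin and 12.02, 11.81, 12.18 and 12.22 with LPS+cordycepin. The arrays thus fell into those with and those without cordycepin, and LPS made a difference of 0.02 (95% interval -0.20 to 0.25) with DMSO and -0.16 (-0.39 to 0.06) with cordycepin. Cordycepin lowered it 2.68-fold at rest (-1.42 ± 0.11, adjusted p = 1.56e-07) and 3.05-fold after LPS (-1.61 ± 0.11, adjusted p = 2.93e-08). The difference between these effects was -0.18, with an interval of -0.50 to 0.13 (adjusted p = 0.909).

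The other probe of Traf2 (chr2:25373541-25373600, mm9), nearer the 3′ end of the gene and dim, read differently. It was well above background on 13 of the 16 arrays and read 5.75, 6.37, 6.14 and 6.12 with LPS+DMSO. With LPS+cordycepin it read 7.61, 6.13, 6.95 and 9.63, which overlapped LPS+DMSO and had an SD of 1.49. Its log2 difference was 1.48 ± 0.55 (adjusted p = 0.0752 over all probes), and -0.02 ± 0.55 for cordycepin against DMSO (adjusted p = 0.988). With the mean of the 2 probes in place of the brighter one, Traf2 no longer passed the test, at -0.06 after LPS and -0.72 at rest. The Traf2 results above therefore hold for the brighter probe.

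**Figure D3:**
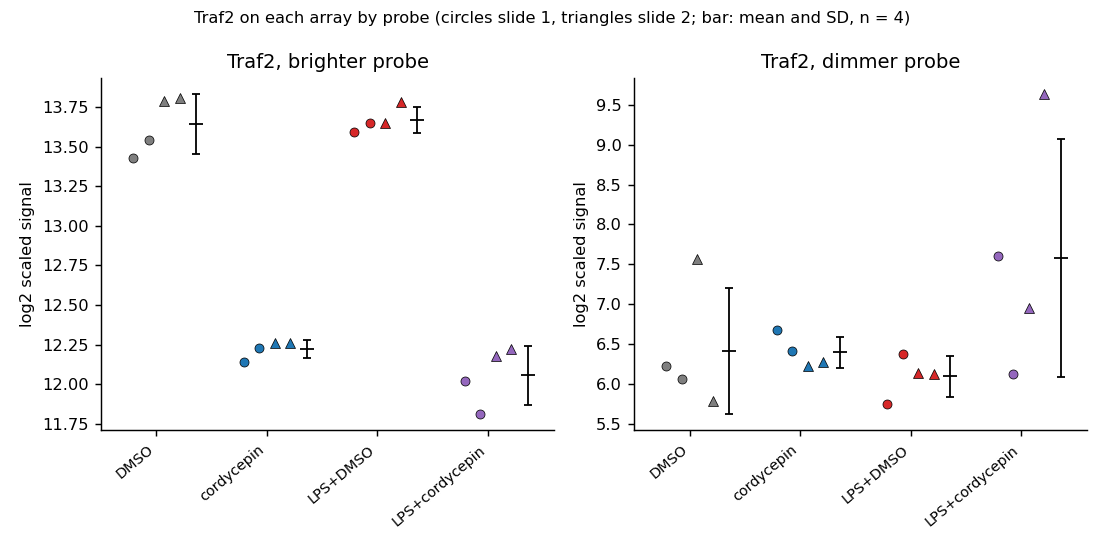
Log2 scaled signal of the brighter (left) and the dimmer (right) Traf2 probe on every array, by condition on the horizontal axis, with circles for slide 1, triangles for slide 2 and bars for the mean and SD (n = 4). Arrays with cordycepin lay between 11.81 and 12.26 on the brighter probe, below all others, while the dimmer probe ranged from 6.13 to 9.63 with LPS+cordycepin.

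Ripk2 encodes the kinase that relays NOD receptor signals to NF-kB. Its probe was dim, well above background on 2 of 4 DMSO, 3 of 4 cordycepin, 4 of 4 LPS+DMSO and 3 of 4 LPS+cordycepin arrays. It read 5.85, 6.17, 6.00 and 5.69 with DMSO and 6.81, 7.06, 6.85 and 7.23 with LPS+DMSO. With LPS+cordycepin it read 6.26, 6.55, 6.46 and 6.13, below LPS+DMSO, above the cordycepin arrays (5.61 to 5.88) and overlapping DMSO. The LPS response of 1.06 ± 0.13 (adjusted p = 3.00e-05) was close to the 2-fold threshold, and fell short of it without the arrays of day 4, at 0.90, without the DMSO array of that day, at 0.98, and without its LPS+DMSO array, at 0.98. With normexp background correction it was 0.46. LPS+cordycepin was -0.64 ± 0.13 from LPS+DMSO (adjusted p = 0.00194), under 2-fold.

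Tnfaip3 encodes A20, a ubiquitin-editing enzyme that ends NF-kB signalling. Its probe (chr10:18720776-18720835, mm9) read 9.63, 9.30, 9.28 and 9.01 with DMSO, and 14.66, 14.68, 14.49 and 14.36 with LPS+DMSO. It read 9.81, 9.33, 9.59 and 9.54 with cordycepin, and 13.44, 13.66, 13.57 and 13.77 with LPS+cordycepin. The LPS conditions did not overlap with each other or with the rest, whereas DMSO and cordycepin overlapped. The LPS response was 5.24 ± 0.13 (adjusted p = 6.59e-13) without and 4.05 ± 0.13 (adjusted p = 2.48e-11) with the drug. LPS+cordycepin was -0.94 ± 0.13 from LPS+DMSO (adjusted p = 8.59e-05), 52.3% of its level and just short of 2-fold. It passed 2-fold without the arrays of day 4, at -1.05.

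Tnip1 encodes ABIN1, which binds ubiquitin chains and works with A20. It read 14.40, 14.38, 14.37 and 14.15 with DMSO and 15.17, 15.37, 15.08 and 15.14 with LPS+DMSO. With cordycepin it read 14.09, 14.11, 13.81 and 13.90, and with LPS+cordycepin 14.39, 14.19, 13.81 and 14.04. All LPS+DMSO arrays were above all others, DMSO lay above cordycepin without overlap, and LPS+cordycepin overlapped both of the latter. The difference of LPS+DMSO from DMSO was 0.86 ± 0.12 (adjusted p = 0.00011), a 1.82-fold change under the threshold. LPS+cordycepin fell 2.11-fold below LPS+DMSO (-1.08 ± 0.12, adjusted p = 6.87e-06), and without its array of day 3, or on slide 1 alone, the change was -0.98 and short of 2-fold. In the presence of cordycepin LPS made a difference of 0.13 (95% interval -0.12 to 0.39). A second probe, directly next to the first, gave 0.90 for LPS and -0.98 for the drug after LPS, the latter just short of 2-fold. For LPS in the presence of cordycepin that probe gave 0.27 ± 0.08 (limma adjusted p = 0.0421 over all probes), under 2-fold.

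Tnfaip2 encodes a TNF-induced protein linked to membrane protrusions. It lay between 13.42 and 13.85 with DMSO, between 14.83 and 15.75 with LPS+DMSO and between 14.02 and 14.69 with LPS+cordycepin, without overlap. With cordycepin it lay between 13.18 and 13.53, which overlapped DMSO. Its LPS response was 1.56 ± 0.19 (adjusted p = 3.46e-05) without and 1.00 ± 0.19 (adjusted p = 0.00323) with cordycepin. The second of these was at the threshold and dropped below it when any of 7 sets of arrays was left out, with values of 0.88 to 1.00 there: the arrays of day 3 or of day 4, the cordycepin array of day 1, 2 or 4, or the LPS+cordycepin array of day 3 or 4. LPS+cordycepin was -0.84 ± 0.19 from LPS+DMSO (adjusted p = 0.00537), under 2-fold. Its second probe gave 1.62, 1.14 and -0.82 for the same comparisons.

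Whether the LPS response itself differed with the drug was tested as an interaction, the response with cordycepin less the response with DMSO. It was below 0 for 9 of the 10 genes and passed the test for 3, Traf1, Tnf and Tnfaip3, where 0.17% of all genes tested passed in that direction, 0.195% in the other and 0.365% in either. The interaction of Traf1 was -1.70 ± 0.30 (adjusted p = 0.0135), or 30.8% of the fold response without the drug. For Tnf it was -1.55 ± 0.16 (adjusted p = 0.00037) and for Tnfaip3 -1.20 ± 0.19 (adjusted p = 0.0103). By day it ran from -1.83 to -1.48 for Traf1, from -1.84 to -1.29 for Tnf and from -1.39 to -1.05 for Tnfaip3, so that its sign was the same on all 4 days in each. Tnip1 (-0.73, adjusted p = 0.0799), Tnfrsf1b (-0.58), Tnfaip2 (-0.56), Ripk2 (-0.50) and Tnfsf9 (-0.32) did not pass. The second probe of Tnip1 gave -0.63 (limma adjusted p = 0.0139 over all probes), under 2-fold. Leaving out a day ended some of the 3 calls while the interaction itself changed little. Traf1 did not pass without day 1, 2 or 3 (adjusted p = 0.0648, 0.114 and 0.245, interaction -1.65, -1.77 and -1.71) and passed without day 4 (0.0378, -1.66). Tnfaip3 did not pass without day 1, 2, 3 or 4 (adjusted p = 0.0507, 0.0575, 0.222 and 0.0588, interaction -1.13, -1.24, -1.18 and -1.22). Tnf passed without each of the days. With arrays scaled to the spiked-in controls 0 of the 3 passed. The interaction values there were lower, at -1.76 for Tnf, -1.41 for Tnfaip3 and -1.91 for Traf1. This scaling lowered the interaction of genes in general, with the median over all genes moving from 0.00 to -0.21. With no filter on dim probes 1 of the 3 passed. Within slide 1 alone 0 and within slide 2 alone 1 of the 3 passed, with interaction values of -1.66 and -1.74 for Traf1, -1.51 and -1.58 for Tnf and -1.22 and -1.17 for Tnfaip3.

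**Figure D4:**
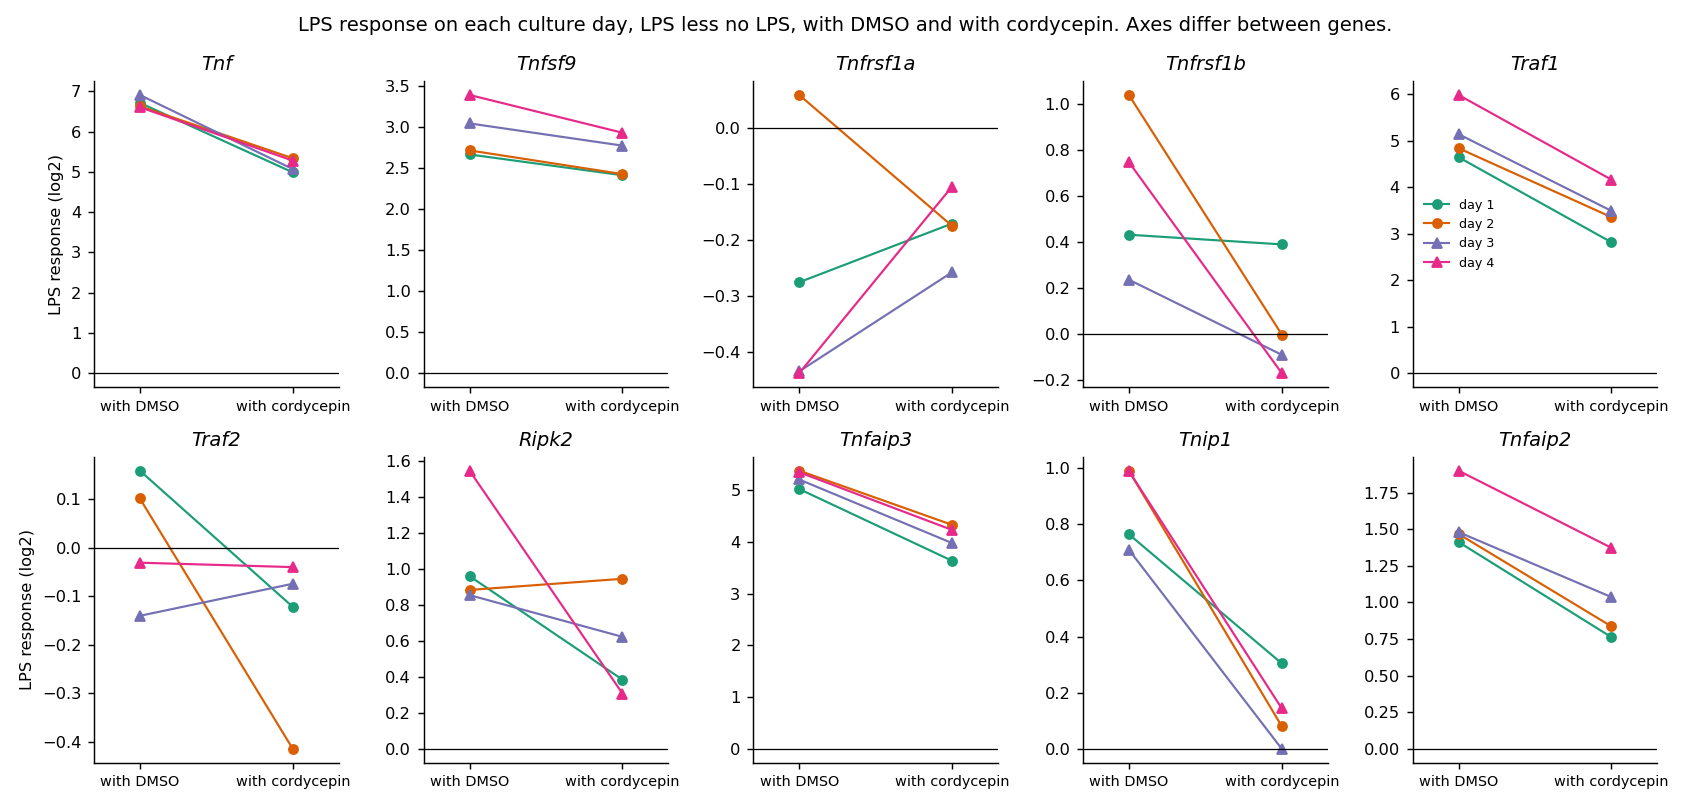
LPS response (log2 scaled signal with LPS less that without, vertical axis) of each gene on each of the 4 culture days, with DMSO and with cordycepin, joined by a line for each day. Circles are slide 1 and triangles slide 2, and each panel has its own axis. For Tnf, Tnfaip3 and Traf1 each line falls, with differences between -1.84 and -1.05.

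Of 43 adaptors, kinases and ubiquitin enzymes of the receptor complexes, all tested, LPS raised 6 and lowered 0 (2.09% and 2.49% of all genes), with a median of 0.06. The 6 were Cflar (2.17), which blocks caspase-8, Nod2 (1.84), Tnip3 (1.72), a relative of Tnip1, Birc3 (1.66), a ubiquitin ligase of the TNFR complexes, Ikbke, a kinase, and Tank (1.33), a TRAF-binding scaffold. The other probes of Cflar did not all move alike with LPS, at 2.35, 1.32 and -0.28, and the probe at 1.32 was 1 that fell with cordycepin after LPS (-1.01). Cordycepin after LPS lowered 2 of the 43, Tnip3 (-1.43) and Ikbke (-1.07), and raised 0 (1.52% and 5.93% of all genes), with a median of -0.14 over the list. The other probe of Tnip3 gave -0.51 (adjusted p = 0.618 over all probes), and the other probe of Tank fell (-1.11, adjusted p = 0.000103) where the brighter probe did not pass. Tnip3 and Ikbke also passed the interaction test, at -1.33 and -1.16, with -0.54 on the other Tnip3 probe (adjusted p = 0.955). Without LPS cordycepin lowered and raised 0 of the 43 (1.06% and 4.49% of all genes). At less than 2-fold, 2 of the 43 had an adjusted p under 0.05 above and 9 below DMSO. Of all 15877 genes 1307 and 1198 had such a p at any fold.

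Among other TNF superfamily ligands only 5 of 16 were tested, and Lta, which encodes lymphotoxin alpha and is the next gene to Tnf in the RefSeq annotation, differed in direction from Tnf. It read 5.48, 6.12, 5.27 and 5.60 with DMSO and 6.68, 6.53, 6.86 and 7.16 with LPS+DMSO. With LPS+cordycepin it read 8.12, 8.38, 8.62 and 8.82, above every other array of the series. The change was 1.68 ± 0.21 against LPS+DMSO (adjusted p = 1.78e-05), where Tnf had -1.07. Its interaction, 1.04 ± 0.29, did not pass the test (adjusted p = 0.167). Its probe was well above background on 13 of 16 arrays and entered the test only through the conditions with LPS, where it was high.

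**Figure D5:**
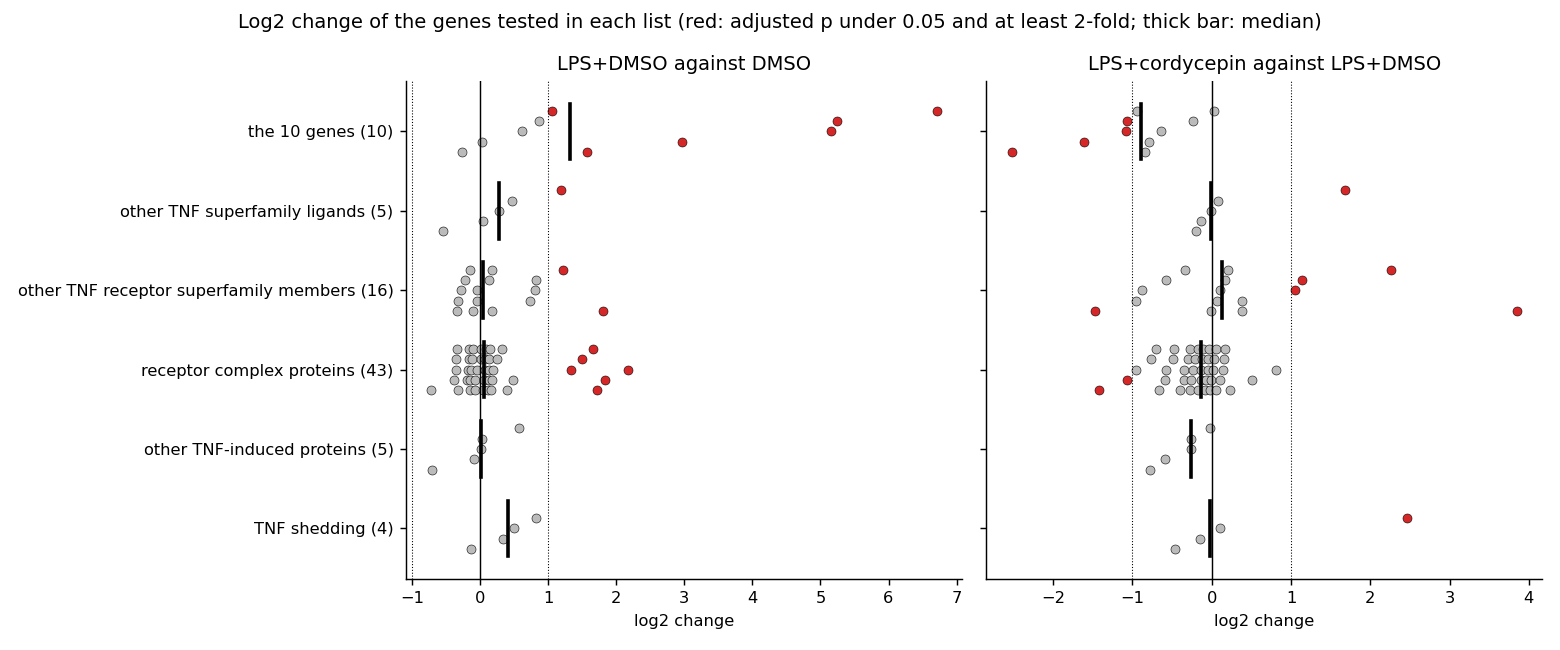
Log2 change of every tested gene in the 10 genes and in 5 further lists of the TNF pathway (rows, number tested in brackets), for LPS (left) and for cordycepin after LPS (right). Red points passed the test at 2-fold and the thick bar is the median, which was 1.31 and -0.89 for the 10 genes and 0.06 and -0.14 for the receptor complex proteins.

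Of 26 other TNF receptors 16 were tested. The shares of all genes given above for each comparison apply to these counts too: 2.09% raised by LPS, 1.52% lowered and 5.93% raised by cordycepin after LPS, and 4.49% raised by cordycepin alone. LPS raised Cd40 (1.81) and Tnfrsf12a (1.21), where Cd40 read 9.52 on the DMSO array of day 2 against 6.03 to 7.21 on the other DMSO arrays, and cordycepin after LPS lowered Tnfrsf12a (-1.47) and raised 4 others. The 4 were Tnfrsf13c, Tnfrsf25 (2.27), Tnfrsf10b (1.14) and Tnfrsf4 (1.06), of which Tnfrsf13c was not well above background on any LPS+DMSO array, so that it was at least 3.27-fold higher, and Tnfrsf25 was so on 1 of the 4. Tnfrsf13c entered the test only through LPS+cordycepin, and Tnfrsf25 only through the conditions with cordycepin, where they were high. A further probe of Tnfrsf13c did not pass the filter on dim probes. Cordycepin alone raised Tnfrsf25, Tnfrsf4 and Tnfrsf13c. Tnfrsf25 was not well above background on any DMSO array and was at least 4.49-fold higher, Tnfrsf13c at least 1.72-fold, and Tnfrsf4 1.45 (log2) higher. Of 5 genes of TNF shedding 4 were tested. Cordycepin raised 1 and lowered 0 of them after LPS (5.93% and 1.52% of all genes), and likewise at rest (4.49% and 1.06%). Adam17, Rhbdf2 and Frmd8 passed in neither. From LPS+DMSO to LPS+cordycepin the mean of Adam17 went from 10.37 to 10.23, of Rhbdf2 from 11.66 to 11.20 and of Frmd8 from 12.21 to 12.32. The gene raised was Rhbdf1, an iRhom that acts on TNF release, 2.46 (log2) higher after LPS and 1.95 higher at rest with the drug. It was dim, well above background on 2 of 4 DMSO and 2 of 4 LPS+DMSO arrays, and also entered the test only through the conditions with cordycepin. None of 5 tested TNF-induced proteins outside the 10 genes changed at 2-fold in these comparisons. With cordycepin after LPS 3 of the 5 had an adjusted p under 0.05 in the lower direction, as did 1344 of all 15877 genes.

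The genes outside the group whose levels over the 16 arrays followed a member most closely were named by Pearson's r, as a description over arrays that share days and conditions. For Tnf they were Phlda1 (0.994), Nfkbiz (0.993) and Maff (0.992). For Traf1 they were Acod1 (0.994), Fosl2 (0.992) and Dusp16 (0.989), and Acod1 fell by 2.31 in LPS+cordycepin against LPS+DMSO. For Tnfaip3 they were Maff (0.994), Nr4a1 (0.992) and Nfkbiz (0.991), and Nfkbiz changed by -1.05 in that comparison. Each of the others changed by less than 2-fold there: Fosl2 by -0.95, Dusp16 by -0.72, Nr4a1 by -0.60, Maff by -0.57 and Phlda1 by -0.49.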

How the data were processed

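Cy3-labelled RNA was hybridised by the authors to 1-colour Agilent mouse arrays. The deposited intensities are processed signals from Agilent Feature Extraction (10.10.1.1 in the submitters' processing notes), with background and spatial trend subtracted. The authors' own table holds log2 values, normalized between arrays by a method not given in the sources used here, and served as an alternative. Probe positions are mm9.

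Control and outlier spots were left out, and spots of a probe averaged. Signals were scaled to the 75th percentile over the 18063 probes that every array measured well above background, then log2-transformed. A probe was kept if all 4 arrays of at least 1 condition measured it well above background (21597 probes), and the brightest probe stood for each of 15877 genes. Limma 3.58.1 (R 4.3.3) was fitted to the 16 arrays with condition as the factor, and p-values were adjusted by Benjamini-Hochberg over all genes tested. On data simulated for LPS+DMSO against DMSO, 200 of 200 changed genes were recovered, with 5 false calls among 15802 genes. Recovery of changes close to 2-fold, such as those called for Tnf and Tnip1 with cordycepin after LPS, was not tested. The number of arrays limits the precision.

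Replicate numbers mark shared culture days in the labels. Deviations from the condition means correlated at 0.197 on average between arrays of a number (-0.0588 to 0.439), 0.176 between other arrays of a slide and -0.187 between slides.

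The 10 genes and the lists were chosen with earlier results of these data known. Named genes were the 10, list genes called in any comparison, and the 3 genes with the highest Pearson correlation with Tnf, Traf1 or Tnfaip3. Cd40 and Cflar probe values were singled out after they were seen.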

Additional observations from a re-analysis of the deposited data

Results flagged for a closer look

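Among 56 sets of 4 arrays, 1 held an array far from the rest by Dixon's test: Tnip1 read 14.15 on the DMSO array of day 4, against 14.37 to 14.40 on the other 3. Chance alone gives about 1 in 20 such sets.

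The LPS response differed between cordycepin and DMSO, by the interaction test, for 3 of the 10 genes: the difference was -1.55 for Tnf, -1.20 for Tnfaip3 and -1.70 for Traf1 (log2). Among the further lists it was -1.16 for Ikbke and -1.33 for Tnip3. It had the other sign for the cell type markers Cd79a (2.28) and Mpo (1.95).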

How the results depend on the processing

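No called result on the 10 genes changed direction in the alternatives, in which the brightest probe or the mean of the probes stood for each gene. Further probes taken alone were not among them. The further Traf2 probe had the other sign for cordycepin after LPS, at 1.48 against -1.61 on the brighter probe. The number of the 10 passing the interaction test, 3 in the analysis above, was 0 with arrays scaled to the 7 spiked-in control probes, 1 with no filter on dim probes, 0 on slide 1 alone, 1 on slide 2 alone and 1 at an adjusted p under 0.01. With the probes of a gene averaged, 0 passed for cordycepin against DMSO. With no minimum fold, 4 passed there and 8 for LPS+cordycepin against LPS+DMSO. Leaving out arrays gave 5 to 6 genes for LPS+DMSO against DMSO, 3 to 5 for LPS+cordycepin against LPS+DMSO, 1 to 1 for cordycepin against DMSO, 4 to 5 for LPS+cordycepin against cordycepin and 1 to 3 for the interaction. The cause of these changes was not tested. With the replicate number as a block, the counts were 6, 4, 1, 5 and 3, and the pairing changed no call among the 10, with interaction adjusted p of 0.00158 for Tnf, 0.0102 for Tnfaip3 and 0.0184 for Traf1 by limma. Over all genes the block gave 109 interaction calls in place of 58. Over all genes, calls in the order of the report's comparisons (LPS, cordycepin after LPS, cordycepin alone, LPS with cordycepin, interaction) were 728, 1184, 881, 462 and 58, against 454, 774, 586, 333 and 48 from the authors' table, 372, 696, 391, 257 and 35 with normexp, 380, 524, 347, 221 and 38 for probes above background on all arrays, and 2372, 3051, 2505, 1294 and 88 with no minimum fold. Interaction calls were 12 with the spiked-in controls, 11 with no filter, 14 at an adjusted p under 0.01, 5 on slide 1, 115 with slide as a block, and 21, 14 and 15 without day 1, 3 or 4. With every probe counted on its own, 1884 probes passed for cordycepin after LPS and 1433 for cordycepin alone, and on slide 1 alone 307 genes passed for LPS with cordycepin. The spiked-in scaling moved the median of all genes from -0.05 to -0.36 for LPS with cordycepin and from 0.00 to -0.21 for the interaction. Calls raised and lowered went from 268 and 194 to 160 and 231 in the former, from 31 and 27 to 9 and 3 in the latter and from 713 and 168 to 632 and 72 for cordycepin alone, and for LPS+DMSO from 332 and 396 to 273 and 181 with the authors' table and 223 and 149 with normexp. The interaction could not be given by the methods' univariate test or from only the groups compared. That test passed 6, 4, 1 and 5 of the 10 in the other comparisons. Probes that were not well above background on every array, among them those of Ripk2, Lta, Rhbdf1, Tnfrsf13c, Tnfrsf25 and the further Traf2 probe, have levels near background in some conditions.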
